A study of Homo sapiens with 12 samples.

Results

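The 41 genes described here encode the machinery of RNA polymerase I (Pol I) and RNA polymerase III (Pol III), and they were chosen as a list of gene symbols from a total of 61163 rows in the count tables. All 41 were found in both tables. Of these, 17 belong to Pol I (6 subunits, 7 promoter, initiation and termination factors and 4 cofactors of the rDNA template), 22 belong to Pol III (10 subunits, 7 genes of TFIIIA and TFIIIC, 3 of TFIIIB, and a repressor with an RNA chaperone), and 2 encode subunits that both enzymes share. Total RNA was sequenced without rRNA depletion from 12 libraries of HEK293T cells, a human embryonic kidney line that carries the SV40 large T antigen. Wild-type cells (HEK WT) and cells with HNRNPUL1 knockout (HEK UL1 KO) were each separated into a nucleolar (NO) fraction and the remaining cytoplasmic-nuclear (CN) fraction, with 3 replicates of each group. The knockout line was made with CRISPR-Cas9 and guides to exons of HNRNPUL1, and whether it comes from a single clone is not given in the sources used here, so that a difference between genotypes and a difference between lines cannot be told apart.

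Pol I transcribes the rDNA repeats in the nucleolus into the precursor of the large ribosomal RNAs, whereas Pol III makes the tRNAs, the smallest ribosomal RNA and other short RNAs. At the rDNA promoter, UBTF and the SL1 complex (TBP with TAF1A, TAF1B, TAF1C and TAF1D) recruit a polymerase that carries RRN3. At a tRNA gene, TFIIIC binds promoter elements inside the transcribed region, the A box and the B box, and places TFIIIB (TBP, BDP1 and BRF1) upstream, which then recruits Pol III. TFIIIA is needed for the ribosomal RNA genes of Pol III, BRF2 replaces BRF1 at promoters that lie outside the gene, and MAF1 represses the polymerase. All of the values below are levels of the RNAs of these genes, not of the proteins or of polymerase activity.

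The targeted gene was checked first. HNRNPUL1, an RNA-binding protein of the hnRNP family (chr19:41262557-41307787), had counts of 1495, 1290 and 1422 in the HEK WT CN libraries and 347, 360 and 288 in the HEK UL1 KO CN libraries. Its level was 3.55-fold lower in HEK UL1 KO CN (log2 fold change -1.83, SE 0.0828, adjusted p = 2.12e-07, edgeR). In NO the counts were 594, 697 and 551 in HEK WT and 453, 164 and 152 in HEK UL1 KO, and the level was 3.99-fold lower (log2 fold change -1.997, SE 0.323, adjusted p = 0.00649), a call lost when libraries were scaled by total counts. Library totals ran from 37141666 to 83019079 counts in NO and from 54349399 to 104040073 in CN, and rRNA took 55.3 to 65.1% of the counts in NO and 73.9 to 78.7% in CN. The members together held 18944 to 46727 counts per NO library and 28259 to 43169 per CN library. As a share of all counts in NO, before TMM scaling, they held 0.0443, 0.04405 and 0.0544% in HEK WT. In HEK UL1 KO NO the shares were 0.0563, 0.0484 and 0.0583%. HEK WT NO replicate 3 stood apart from the others of its group, with a TMM scaling factor of 1.395 against 0.690 and 0.622. The HEK UL1 KO NO libraries had factors of 1.34, 1.09 and 1.15, so that the other HEK WT libraries were the ones that differed from the remaining 4, and the NO results are given with and without replicate 3. In CN, HEK WT replicate 3 stood apart, with a factor of 0.761 against 1.007 to 1.091 in the other libraries, 78.7% of counts in rRNA against 73.9 to 74.8%, and 0.0398% in the members against 0.0507 to 0.0520%. Of the markers of this line, KRT8, KRT18, VIM, PAX2 and NEFM all had at least 37 counts in every library. KRT8 was higher and VIM lower in HEK UL1 KO, with 43, 49 and 37 against 178, 187 and 167 counts and 2540, 2278 and 2993 against 858, 912 and 616 counts in CN. Of the others, KRT18 and PAX2 were higher in HEK UL1 KO CN (log2 fold change 1.28 and 0.76) and NEFM was lower (-0.54), so that all 5 were called there, and so was COL1A1, a fibroblast marker, which was higher (0.75, adjusted p = 0.0137, edgeR). The part of these differences between the lines in the results below was not tested. Among the 4 markers of other cell types, ALB had at most 26 counts, while COL1A1, PTPRC and PECAM1 had up to 120, 178 and 246.

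Upstream sequence was read for the members that the results turn on, from the RefSeq promoters of GRCh38.p14, in which 33 of the 41 members had an entry. Each window below is the 250 bases before the annotated start, written 5' to 3' on the strand of the gene. They are shown because TAF1A and POLR3E had the largest falls in CN of HEK UL1 KO cells and POLR3GL and POLR1C rose. The positions are chr1:222589934-222590183 (minus strand) for TAF1A, chr16:22297159-22297408 (plus) for POLR3E, chr1:145964440-145964689 (plus) for POLR3GL and chr6:43516839-43517088 (plus) for POLR1C. Capitals mark matches to motifs in TAF1A, POLR3GL and POLR1C, and in POLR3E they mark bases of a neighbouring tRNA gene.
TAF1A: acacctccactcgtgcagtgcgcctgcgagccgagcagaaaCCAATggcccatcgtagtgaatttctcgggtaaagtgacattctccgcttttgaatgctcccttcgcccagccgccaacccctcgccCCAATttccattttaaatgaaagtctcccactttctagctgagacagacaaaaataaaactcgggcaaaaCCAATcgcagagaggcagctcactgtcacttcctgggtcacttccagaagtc
POLR3E: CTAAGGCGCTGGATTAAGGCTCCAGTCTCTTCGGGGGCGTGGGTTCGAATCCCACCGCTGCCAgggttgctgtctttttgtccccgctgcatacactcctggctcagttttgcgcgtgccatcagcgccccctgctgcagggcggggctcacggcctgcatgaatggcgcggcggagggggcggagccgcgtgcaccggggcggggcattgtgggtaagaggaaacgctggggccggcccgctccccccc
POLR3GL: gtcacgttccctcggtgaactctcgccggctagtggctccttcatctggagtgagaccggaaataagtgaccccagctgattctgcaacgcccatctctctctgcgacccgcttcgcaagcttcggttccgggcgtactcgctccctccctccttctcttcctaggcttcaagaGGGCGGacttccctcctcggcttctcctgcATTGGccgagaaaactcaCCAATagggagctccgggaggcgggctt
POLR1C: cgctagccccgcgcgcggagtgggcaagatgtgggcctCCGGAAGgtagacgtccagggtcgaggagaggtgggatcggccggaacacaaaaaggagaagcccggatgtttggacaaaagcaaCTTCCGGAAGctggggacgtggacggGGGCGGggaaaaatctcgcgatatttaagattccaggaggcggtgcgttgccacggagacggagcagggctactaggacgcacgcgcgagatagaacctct

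Motifs were searched on both strands of these windows, and a match describes the letters and not a bound site. The GC box (GGGCGG) was found in 18 of the 33 member windows and in 42.3% of the windows of 27305 gene symbols. The CCAAT box was found in 12 of 33 and in 33% of all, the ETS-type motif CCGGAAG in 8 of 33 and in 8.82% of all, and the E-box CACGTG in 6 of 33 and in 6.49% of all. The NRF1-type motif was found in 5 of 33 against 5.53% of all, and TATAAA in 2 of 33 against 11.1%. The POLR3E window starts inside a leucine tRNA gene, TRL-AAG2-4 (chr16:22297140-22297221), which fills its first 63 bases, and the capitals hold a match to the B box, the element to which TFIIIC binds. This motif, searched after the sequence had been seen, was found in 2 of 33 member windows (POLR3E and TAF1C) and in 0.157% of all. POLR3E was the only member whose window met a tRNA gene.

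The members differed widely in abundance when counts were divided by transcript length. Per kilobase of the MANE Select transcript, the levels in HEK WT CN ran from 0.155 CPM for BRF2 to 105.9 CPM for POLR1C, with a median of 1.67 CPM (CPM, counts scaled to a common library size by TMM). Next to POLR1C came SSB, the La protein that binds the ends of new Pol III transcripts, with 16.1 ± 1.08 CPM per kilobase (SD, n = 3), and TAF1D with 13.1 ± 0.215. Of the catalytic subunits, POLR3A and POLR1A were near or below the middle of the order, with 1.67 ± 0.154 and 1.17 ± 0.0860 CPM per kilobase. POLR3B lay above the middle, with 3.24 ± 0.0166. POLR3A lay above POLR1A by more than their SD, whereas POLR3A and its neighbour in the order, POLR1B (1.66 ± 0.0335), lay within it. POLR1C was the highest of the members in all 4 groups.

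**Figure D1:**
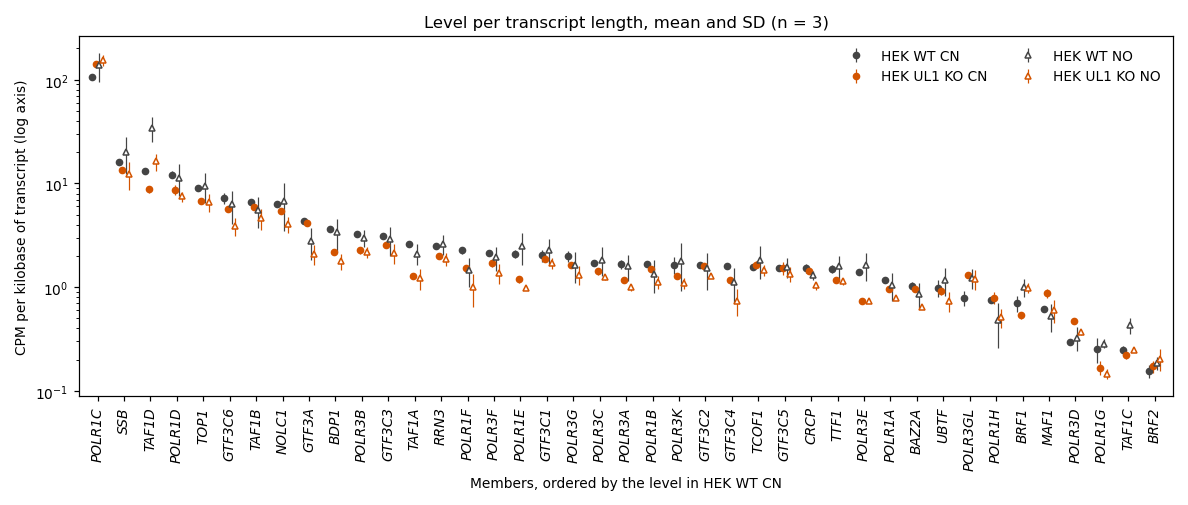
CPM per kilobase of MANE Select transcript (log axis) for the 41 members, ordered by HEK WT CN, with points for group means and bars for the SD of 3 libraries. POLR1C lies at 105.9 in HEK WT CN, above SSB at 16.1, and BRF2 is lowest at 0.155.

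POLR1C needs care as a measure of its mRNA. Its counts, 10673 to 13176 per CN library and 6859 to 18553 per NO library, may include reads of any of its annotated exons. The MANE Select exons of POLR1C hold no repeated window of 50 bases, but other annotated exons do. In the exon at chr6:43529249-43529585, 37.5% of the windows occur elsewhere in the genome, up to 626 times, and in the exon at chr6:43561400-43562419, 9.475% do, up to 5371 times. XPO5, a nuclear export receptor gene, also overlaps POLR1C (chr6:43522334-43576038), and its log2 fold change in CN was -0.18 (SE 0.0702, adjusted p = 0.0607, edgeR), whereas that of POLR1C was above 0. The part of these exons in the POLR1C count was not tested. In RRN3, GTF3C6, TOP1 and SSB, 19.1, 19.9, 15.1 and 12.7% of the MANE windows are repeated in the genome, so that their counts may include reads of related copies. POLR1H is listed with 7 further copies, whose counts lay between 0.643 and 1.07 times its own, so these entries are not independent.

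The comparison of HEK UL1 KO with HEK WT in CN asks whether the RNAs of the 2 polymerase systems differ outside the nucleolus when hnRNP UL1 is missing. Of the 41 members, 20 were lower and 4 were higher in HEK UL1 KO cells (edgeR's quasi-likelihood test, Benjamini-Hochberg adjusted over 27234 genes, called under 0.05). Over all genes tested, 37.9% were called, 22.3% lower and 15.6% higher, and among genes in the same range of counts as the members 33.1% were lower and 16.7% higher. The median log2 fold change was -0.27 for the members, -0.13 for genes in that range of counts and 0.04 for all genes. At an unadjusted p under 0.05, 29 members passed, against 47.8% of all genes. Ranges of the 2 groups did not overlap for 24 members that were lower and 4 that were higher, against 28.1 and 24.7% of all genes (52.8% in either direction). Scaling carried part of this picture. With total counts in place of TMM, the median of all genes moved up by 0.20 on the log2 scale, the share of higher among all calls went from 41.2 to 68.1%, and 4 members were lower and 4 higher. Over all 27234 genes, 1730 were lower and 3700 higher with total counts. Without HEK WT replicate 3, 16 members were lower and 4 higher, and of 28619 genes 5370 were lower and 4931 higher. In bulk RNA, a lower level per cell and fewer expressing cells cannot be told apart.

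Among Pol I subunits, 3 of 6 were lower in CN and none was higher. POLR1E, which forms with POLR1G the subcomplex that helps Pol I to elongate (chr9:37485948-37503697), had 3.77, 3.59 and 4.32 CPM in HEK WT and 2.04, 2.38 and 2.24 CPM in HEK UL1 KO. The groups did not overlap, and the level was 1.75-fold lower (log2 fold change -0.81, SE 0.116, adjusted p = 0.000365). POLR1F, a subunit of the stalk, had 9.27, 7.98 and 9.16 CPM in HEK WT and 6.24, 6.11 and 5.48 CPM in HEK UL1 KO (log2 fold change -0.56, SE 0.0901, adjusted p = 0.000715). POLR1A, the largest catalytic subunit, had 13.5, 14.7 and 15.6 CPM against 11.996, 11.7 and 12.2 CPM (log2 fold change -0.29, SE 0.0748, adjusted p = 0.0116), a smaller difference whose call was lost when any of 3 libraries was left out. POLR1B, the second-largest subunit, POLR1G and POLR1H were not called, with log2 fold changes of -0.13, -0.58 and 0.08.

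The factors that bring Pol I to the rDNA promoter contained the largest fall among the members. TAF1A, an SL1 subunit (chr1:222554105-222589933) whose upstream window is printed above, had 5.01, 5.04 and 5.00 CPM in HEK WT CN and 2.32, 2.62 and 2.48 CPM in HEK UL1 KO CN. The HEK WT values were nearly equal and lay above all of the HEK UL1 KO values, and the level was 2.03-fold lower (log2 fold change -1.02, SE 0.0945, adjusted p = 2.17e-05). Its gene shares 14 bases with the antisense gene TAF1A-AS1. TAF1D, another SL1 subunit, had 21.5, 21.8 and 21.1 CPM against 14.0, 15.5 and 13.4 CPM (log2 fold change -0.58, SE 0.0740, adjusted p = 0.000164). RRN3, the factor that makes Pol I competent to initiate, and TTF1, the terminator protein, were lower by 0.32 and 0.35 on the log2 scale (adjusted p = 0.00797 and 0.0165). TAF1B, TAF1C and UBTF, the activator that coats active rDNA, were not called. UBTF had 4.36, 4.08 and 5.70 CPM in HEK WT and 4.06, 4.37 and 4.65 CPM in HEK UL1 KO, and these overlapped. Summed over the 7 factors, the level was 60.0, 61.7 and 62.2 CPM in HEK WT and 46.6, 48.3 and 44.9 CPM in HEK UL1 KO. TAF1D, which hosts the snoRNA genes described below, had the highest level of the 7 and weighs most in this sum. Outside the list, the sum over RNA polymerase II subunits was also lower in CN, with 66.4, 62.6 and 67.8 against 54.1, 53.1 and 53.8 CPM. That of POLR1C and POLR1D was higher, with 145.35, 136.54 and 148.67 against 184.83, 182.06 and 191.1 CPM. Of the 4 cofactors, TOP1, the topoisomerase that relaxes DNA around transcribing Pol I, and NOLC1, a nucleolar phosphoprotein, were lower (log2 fold change -0.41 and -0.22), and TCOF1 (treacle) and BAZ2A, a subunit of the silencing complex NoRC, were not called (0.08 and -0.10).

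The shared subunits POLR1C and POLR1D, which form the assembly platform of both enzymes as a heterodimer, were called in opposite directions. POLR1C had 136.8, 127.6 and 140.9 CPM in HEK WT CN and 178.7, 175.4 and 185.8 CPM in HEK UL1 KO CN (log2 fold change 0.41, SE 0.0836, adjusted p = 0.00298). POLR1D had 8.57, 8.98 and 7.81 CPM in HEK WT and 6.13, 6.64 and 5.33 CPM in HEK UL1 KO (log2 fold change -0.48, SE 0.0976, adjusted p = 0.00296). The groups did not overlap for either gene, with the reservation on POLR1C counts given above.

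**Figure D2:**
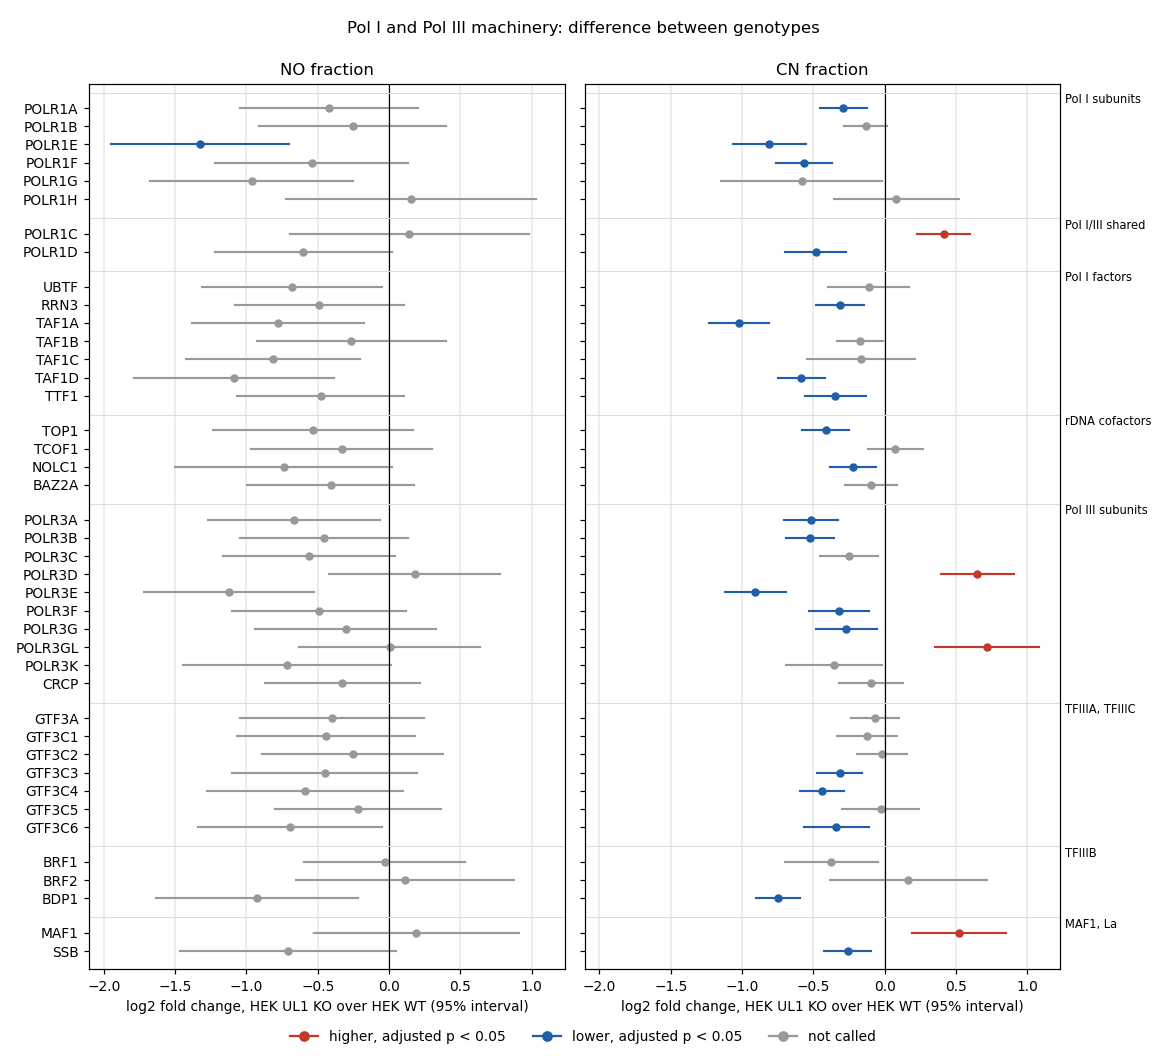
Log2 fold change of HEK UL1 KO over HEK WT for the 41 members by role, in NO (left) and CN (right), with bars for the 95% interval, blue for lower, red for higher and grey for not called. In CN, 20 members are lower and 4 higher, with TAF1A lowest at -1.02 and POLR3GL highest at 0.72, and in NO only POLR1E is called.

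Pol III subunits moved in both directions, with 5 of 10 lower and 2 higher. POLR3E (chr16:22297409-22335096), a peripheral subunit that takes part in initiation, had 5.36, 5.12 and 4.94 CPM in HEK WT CN and 2.58, 2.93 and 2.72 CPM in HEK UL1 KO CN. This was 1.87-fold lower (log2 fold change -0.91, SE 0.0957, adjusted p = 5.10e-05). The tRNA gene TRL-AAG2-4 that lies over the start of its upstream window had 24, 29 and 37 counts in HEK WT CN and 12, 13 and 10 in HEK UL1 KO CN (log2 fold change -1.11, SE 0.322, adjusted p = 0.0201), and a second listed copy had the same counts in all libraries. The catalytic subunits were lower too. POLR3A had 9.92, 11.2 and 11.9 CPM against 7.36, 7.89 and 7.88 CPM (log2 fold change -0.51, SE 0.0858, adjusted p = 0.000946), and POLR3B had 13.5, 13.6 and 13.6 CPM against 9.47, 10.1 and 8.74 CPM (log2 fold change -0.52, SE 0.0754, adjusted p = 0.000379). POLR3F, a subunit that contacts TFIIIB, had a log2 fold change of -0.32 (adjusted p = 0.0236). POLR3D, which pairs with POLR3E, went the other way, with 1.57, 1.65 and 1.54 CPM in HEK WT and 2.47, 2.41 and 2.60 CPM in HEK UL1 KO (log2 fold change 0.65, SE 0.117, adjusted p = 0.00150). POLR3C, POLR3K and CRCP were not called (log2 fold change -0.25, -0.36 and -0.10).

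POLR3G and POLR3GL are paralogs that take the same place in alternative forms of Pol III, of which the POLR3G form is known from stem and tumour cells. POLR3G had 7.23, 6.67 and 5.72 CPM in HEK WT CN and 5.55, 5.45 and 5.30 CPM in HEK UL1 KO CN, and this fall was at the threshold (log2 fold change -0.27, SE 0.0969, adjusted p = 0.0496) and was called under 1 of 7 other settings and 1 of 6 fits that left out a library. POLR3GL rose, from 0.783, 1.09 and 0.935 CPM to 1.49, 1.48 and 1.65 CPM (log2 fold change 0.72, SE 0.165, adjusted p = 0.00618). Their ratio within a library does not depend on scaling between libraries. POLR3G counts were 9.23, 6.13 and 6.12 times those of POLR3GL in HEK WT CN and 3.72, 3.68 and 3.20 times in HEK UL1 KO CN, without overlap. The mean log2 ratio was 2.80 ± 0.340 (SD, n = 3) against 1.81 ± 0.121, a difference of -0.99 (exact two-sided permutation test, p = 0.1, the smallest that 3 against 3 allows). In NO the log2 ratio was 1.86 ± 0.210 in HEK WT and 1.61 ± 0.609 in HEK UL1 KO, with p = 0.6 in the same exact test, and the 2 groups overlapped. Per kilobase of transcript the level of POLR3G in CN was above that of POLR3GL in HEK WT (1.99 ± 0.231 and 0.794 ± 0.129 CPM per kilobase, SD, n = 3) and in HEK UL1 KO (1.65 ± 0.0384 and 1.31 ± 0.0831).

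Among the Pol III factors, the scaffold of TFIIIB stood out. BDP1 (chr5:71455651-71578288) had 41.2, 39.6 and 39.7 CPM in HEK WT CN and 24.6, 24.4 and 22.8 CPM in HEK UL1 KO CN, 1.68-fold lower (log2 fold change -0.75, SE 0.0694, adjusted p = 2.20e-05). BRF1 had 2.08, 2.64 and 2.96 CPM against 1.89, 2.13 and 1.89 CPM, which overlapped (log2 fold change -0.38, SE 0.147, adjusted p = 0.0665), and BRF2 had 0.368, 0.359 and 0.468 CPM against 0.437, 0.506 and 0.388 CPM and was not called. The log2 ratio of BRF2 to BRF1 was -2.66 ± 0.192 (SD, n = 3) in HEK WT CN and -2.14 ± 0.107 in HEK UL1 KO CN, a difference of 0.52 (p = 0.1, again the lowest value the exact permutation test can reach). This ratio rests on BRF2 counts of 30 to 37 per library in HEK WT CN and 23 to 38 in HEK UL1 KO CN. In NO it was -2.92 ± 0.342 in HEK WT and -2.79 ± 0.155 in HEK UL1 KO (p = 0.6, same exact test). In TFIIIC, 3 of 6 subunits were lower: GTF3C4, an acetyltransferase subunit (log2 fold change -0.44, adjusted p = 0.000657), GTF3C6 (-0.34, 0.0258) and GTF3C3 (-0.32, 0.00597). The remaining subunits GTF3C1, GTF3C2 and GTF3C5, and TFIIIA itself (GTF3A), had log2 fold changes between -0.12 and -0.02 and were not called. MAF1, the repressor, had 1.009, 1.03 and 1.12 CPM in HEK WT and 1.46, 1.68 and 1.38 CPM in HEK UL1 KO (log2 fold change 0.52, SE 0.149, adjusted p = 0.0191), but DESeq2 did not call it (adjusted p = 0.118) and leaving out any of 4 libraries ended its call. SSB was lower by 0.26 on the log2 scale (adjusted p = 0.0184).

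**Figure D3:**
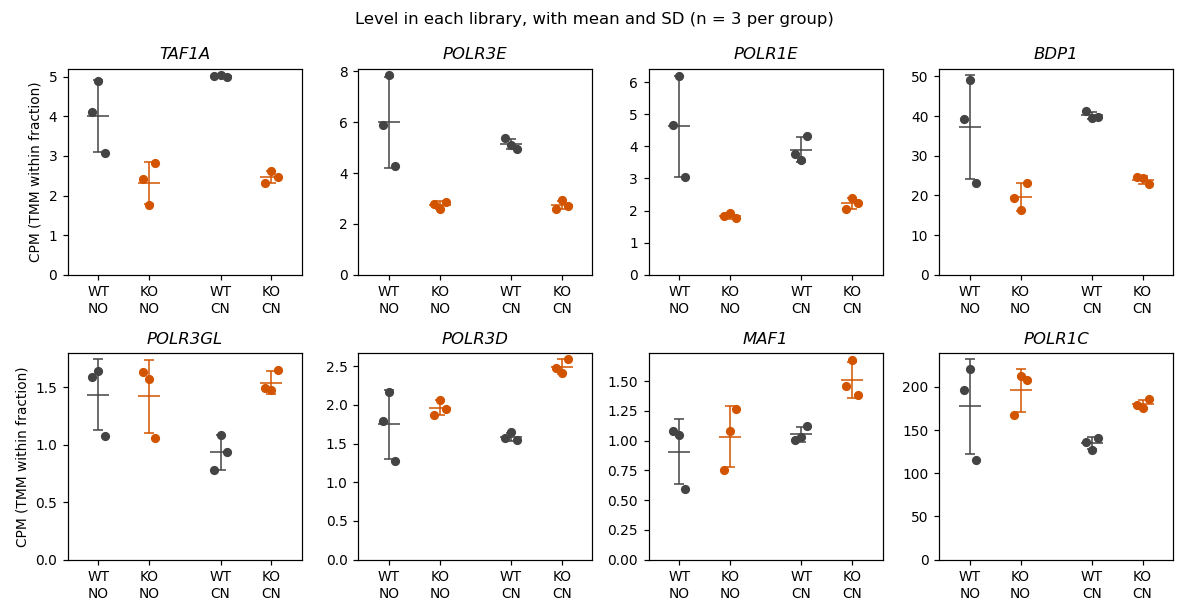
Level in CPM (scaled within each fraction) of 8 members in every library, with grey for HEK WT, orange for HEK UL1 KO, and bars for the mean and SD of 3 libraries. In CN the genotypes do not overlap for any of the 8 genes, TAF1A, POLR3E, POLR1E and BDP1 being lower and POLR3GL, POLR3D, MAF1 and POLR1C higher in HEK UL1 KO, while HEK WT NO replicate 3 lies lowest of its group in all 8.

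Several smaller falls in CN depended on single libraries. Among the 6 fits that left out a library, the calls of TTF1, GTF3C6 and NOLC1 held in 1, and those of POLR3F and SSB in 2. NOLC1 was called under 2 of 7 other settings. The 4 members with the largest falls, TAF1A, POLR3E, POLR1E and BDP1, were the only members called under all 7 other settings in CN (other scalings, DESeq2, other filters, a replicate block and a fit of all 12 libraries) and in all 6 fits that left out a library. With total counts their log2 fold changes were -0.82, -0.71, -0.59 and -0.55. In the fit of all 12 libraries POLR3B was called in addition and no member was called higher. The other 17 members were not called in the fit reported here, although POLR1G, POLR3K and BRF1 were each called in 1 of the 6 fits that left out a library.

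Related genes outside the list were read in the same CN fit, in which 22.3% of all genes tested were lower and 15.6% higher. Among genes in the same range of counts as the members, 33.1% were lower and 16.7% higher. Whether the lists below differ from these shares was not tested. Of 5 subunits shared by all 3 polymerases, 2 were lower in CN (POLR2F and POLR2K, log2 fold change -0.41 for both), and of 7 Pol II subunits 2 were lower (POLR2B and POLR2C, -0.58 and -0.51). Among other genes of the Pol III pathway, TBP had a log2 fold change of -0.27, SNAPC3 of -0.45 and the octamer-binding factor POU2F1 of -0.50, all called lower, while SNAPC5, another subunit of the snRNA activating complex, was higher by 0.94. Of 8 other Pol I pathway genes, NPM1 and DDX21, both abundant nucleolar proteins, were lower (-0.54 and -0.57), and NCL and MYC were not called.

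In NO the question is whether these RNAs differ in the fraction in which Pol I works. A single member, POLR1E, was called there, while 0.939% of all genes were (0.574% lower and 0.365% higher). It had 4.67, 6.18 and 3.03 CPM in HEK WT NO and 1.82, 1.93 and 1.76 CPM in HEK UL1 KO NO, a 2.51-fold lower level without overlap (log2 fold change -1.33, SE 0.296, adjusted p = 0.0412). This edgeR call was lost under total counts (adjusted p = 0.729), with at least 10 counts required in every library (0.0691), with the replicate block (0.0995) and when any library but HEK WT replicate 3 was left out. At an unadjusted p under 0.05, 10 members were lower and none higher, against 16.0% of all genes in either direction. Of the 34836 genes tested, 3418 were lower and 2156 higher at this threshold. POLR3E had 5.90, 7.85 and 4.26 CPM in HEK WT NO against 2.79, 2.59 and 2.86 CPM in HEK UL1 KO NO (log2 fold change -1.12, SE 0.284, adjusted p = 0.0682), without overlap, and DESeq2 called it (adjusted p = 0.0114). In TAF1A the values were 4.10, 4.88 and 3.07 CPM against 2.41, 1.76 and 2.81 CPM (log2 fold change -0.78, adjusted p = 0.197). Ranges did not overlap for 9 members, all lower, against 9.17% of all genes lower and 11.0% higher (20.1% in either direction). The log2 fold change was below 0 for 35 of 41 members with TMM, against 17323 of the 34836 genes tested. With total counts it was below 0 for 16 of 41 members. Under that scaling the median of all genes moved up by 0.39, and the share of higher among all calls went from 38.8 to 70%.

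HEK WT replicate 3 had the lowest CPM of its group for POLR1E, POLR3E, TAF1A and BDP1 after TMM scaling. Before this scaling, the members held 0.0544% of its counts, against 0.0443 and 0.04405% in the other HEK WT libraries. Without replicate 3, 23 members were called lower in NO and none higher. This fit called 9133 of 36336 genes, 5546 lower and 3587 higher. Of the 23 members, 17 were lower in CN as well, where 20 of 41 members were. The same overlap over all genes was not counted. POLR1E then had a log2 fold change of -1.58 (SE 0.223, adjusted p = 0.000666), POLR3E of -1.34 (SE 0.224, adjusted p = 0.00174), BDP1 of -1.19 (SE 0.266, adjusted p = 0.00692) and TAF1A of -0.96 (SE 0.238, adjusted p = 0.0111). UBTF, not called in CN, was among the 23 (-0.94, adjusted p = 0.0116). Of the 4 members higher in CN, none was called in NO, and their log2 fold changes of 0.01 to 0.19 turned to between -0.18 and -0.03 without this library. This fit rests on the 2 HEK WT libraries with the lowest scaling factors of the 6.

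**Figure D4:**
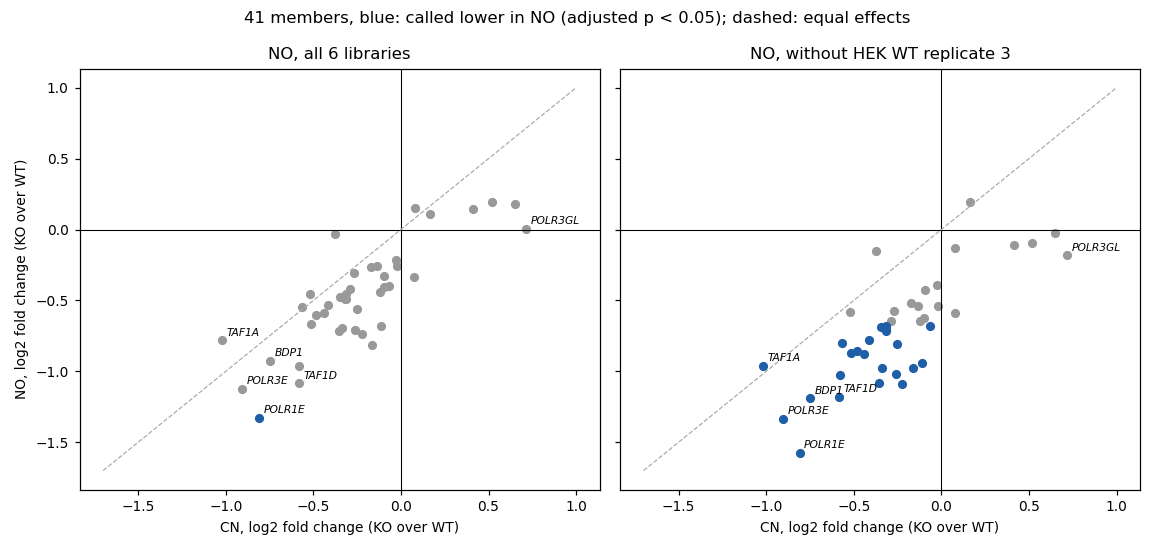
Log2 fold change between genotypes in NO against that in CN for the 41 members, with all 6 NO libraries (left) and without HEK WT NO replicate 3 (right), with the dashed line for equal values and blue for members called lower in NO. Only POLR1E is called on the left and 23 members on the right, and the 4 members called higher in CN lie between 0.01 and 0.19 in NO on the left and below 0 on the right.

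A call in one fraction does not show that the fractions differ, so the interaction of genotype and fraction was tested over all 12 libraries. No member had an adjusted p under 0.05 with edgeR or DESeq2, and none had an unadjusted edgeR p under 0.05, against 0.114% of all genes adjusted (0.0846% higher and 0.0291% lower) and 3.32% unadjusted. The estimates ran from -0.55 for POLR3GL (95% interval -1.25 to 0.14) to 0.49 for BRF1 (-0.10 to 1.08). The SE of the members' estimates ran from 0.252 to 0.442, so that differences between fractions of this size could not be resolved.

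Comparing NO with CN in HEK WT cells shows in which fraction the RNAs of the machinery were relatively more abundant. The nucleolar RNA SNORD3A had 10676.3 ± 866.99 CPM in HEK WT NO and 303.21 ± 48.968 in HEK WT CN (SD, n = 3, scaled within each fraction). GAPDH had 40.655 ± 17.297 and 41.984 ± 6.0399 CPM, and ACTB 43.598 ± 16.383 and 55.924 ± 10.329, which lay within the SD. MALAT1 had 123.4 ± 40.627 and 185.44 ± 6.7292 CPM. Counts in NO therefore do not by themselves place an mRNA in the nucleolus, and the location of the members' RNAs was not tested. Of the 41 members, 21 were lower and 1 was higher in NO, while 52.8% of all genes were called, 20.9% lower and 31.9% higher. At an unadjusted p under 0.05, 25 members passed, against 58.8% of all genes. Ranges did not overlap for 26 members that were lower and 2 that were higher in NO, against 30.5 and 35.2% of all genes (65.6% in either direction). Among genes in the same range of counts as the members, 32.4% were lower and 19.2% higher. The median log2 ratio of NO over CN was -0.46 for the members, -0.32 for genes in that range and 0.02 for all genes. With total counts the median of all genes moved up by 0.35, the share of higher among all calls went from 60.4 to 91.1%, and 3 members were lower and 1 was higher. Over all 29340 genes, 624 were lower and 6387 higher with total counts. The number of members lower was 13 without HEK WT CN replicate 1 and 31 without HEK WT NO replicate 2. In these 2 fits, 4443 of 30654 and 8820 of 33464 genes were lower. The lowest ratios belonged to POLR1H, a small Pol I subunit used in transcript cleavage (log2 ratio -1.17, SE 0.357, adjusted p = 0.0209, a call lost in 3 of 6 fits that left out a library, with total counts and with the replicate block), GTF3A (-1.14, SE 0.202, adjusted p = 0.00408), POLR1F (-1.13, SE 0.191, adjusted p = 0.00396), GTF3C4 (-1.03, SE 0.202, adjusted p = 0.00466) and POLR1B (-0.81, SE 0.201, adjusted p = 0.00908). GTF3A had 185, 156 and 145 counts in NO and 541, 529 and 475 in CN, and GTF3C4 had 407, 409 and 336 against 1210, 1144 and 1055. For POLR1F the counts were 251, 224 and 216 in NO and 781, 668 and 725 in CN. POLR1H counts were 14, 20 and 15 against 55, 57 and 47, and those of POLR1B were 477, 391 and 357 against 1030, 1064 and 994. These counts did not overlap, though the libraries differ in depth. Of the 7 genes of TFIIIA and TFIIIC, 6 were lower in NO, and of the 3 in TFIIIB only BDP1 was (-0.61, adjusted p = 0.0270). UBTF, RRN3, POLR3G and BRF1 had log2 ratios of -0.23, -0.42, -0.78 and 0.07, of which RRN3 and POLR3G were called. The calls of BDP1 and RRN3 held in 2 and 3 of the 6 fits that left out a library. TAF1D, POLR1F, GTF3A and GTF3C4 were called under all 6 other settings and in all 6 fits that left out a library.

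TAF1D was the exception, with 2894, 1458 and 2978 counts in HEK WT NO and 1809, 1823 and 1669 in HEK WT CN (log2 ratio 0.94, SE 0.214, adjusted p = 0.00665). The gene (chr11:93730194-93741495) hosts 8 snoRNA genes in RefSeq, small RNAs that guide the modification of rRNA in the nucleolus. All 8 were higher in NO of HEK WT cells, with log2 ratios from 1.08 for SNORD5 and SNORA32 to 4.32 for SNORA8 (SE 0.332, adjusted p = 0.000105). SNORA8 had 666, 258 and 779 counts in NO and 44, 37 and 35 in CN, and in replicate 2 both TAF1D and SNORA8 had their lowest NO count of the 3 HEK WT libraries. Between genotypes, TAF1D had 74.2, 45.04 and 50.2 CPM in HEK WT NO and 26.9, 21.4 and 31.6 CPM in HEK UL1 KO NO, without overlap (log2 fold change -1.09, SE 0.334, adjusted p = 0.129). The log2 fold changes of the 8 snoRNAs in NO lay between -0.58 (SNORD5) and -1.69 (SNORA40), and SNORA40 and SNORA8 were called (adjusted p = 0.0308 and 0.0377). In CN 7 of the 8 could be tested, with values from -0.55 to -1.87. SNORA1, SNORA8, SNORA40 and SNORA18 were called lower there (adjusted p = 0.00931, 0.0174, 0.0285 and 0.0393, edgeR). Counts in CN were low, with 21, 30 and 15 for SNORA1 in HEK WT and 5, 8 and 2 in HEK UL1 KO. How many of the reads counted for TAF1D come from the snoRNAs was not tested.

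**Figure D5:**
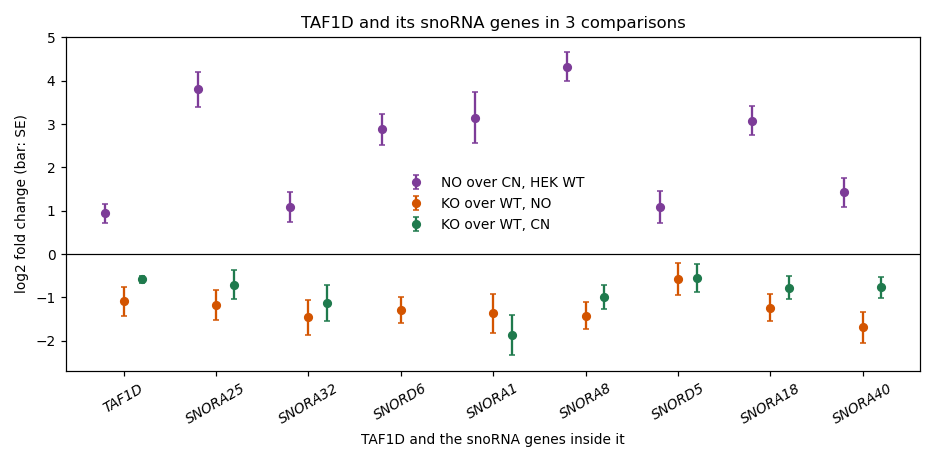
Log2 fold change with SE for TAF1D and the 8 snoRNA genes inside it, for NO over CN in HEK WT (purple) and for HEK UL1 KO over HEK WT in NO (orange) and CN (green). All 9 are higher in NO than in CN, with SNORA8 at 4.32 and TAF1D at 0.94, and all lie below 0 between genotypes (SNORD6 was not tested in CN).

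Other genes overlap the span of 29 members in RefSeq, and for 14 of them the other gene codes for a protein, as PDXDC1 does for RRN3, ERCC1 for POLR1G and PACS2 and BTBD6 for BRF1. The strand setting of the counting is not given in the sources used here, so reads of such pairs may not be told apart.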

How the data were processed

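Nucleolar (NO) and cytoplasmic-nuclear (CN) RNA of both genotypes was analysed in 12 libraries, 3 per group. The authors deposited raw counts per gene as 1 table per fraction, without normalization. Their processing notes and methods name FastQC 0.11.4, cutadapt 3.7, STAR 2.7.8 with GRCh38, featureCounts and DESeq2. The annotation release and the counting options are not given in the sources used here. All columns were matched to samples by their labels (0 unmatched).

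Counts were tested with edgeR 4.0.16 in R 4.3.3 (quasi-likelihood F test, filterByExpr with a minimum count of 10 and a minimum total of 15, TMM over all genes). P-values were Benjamini-Hochberg adjusted over all genes tested and called under 0.05. SE and 95% intervals were derived from the F statistic. The models were genotype within NO, genotype within CN, fraction within HEK WT, and the interaction over 12 libraries, and DESeq2 1.42.0 was an alternative. All 41 members passed the filter in each comparison. Whether the replicates come from separate cultures is not given in the labels, so p-values measure only the spread between these samples, which may be technical. Ratios of paralog counts used a pseudocount of 0.5 and exact two-sided permutation tests. CPM were scaled by TMM within a fraction, and lengths are those of MANE Select transcripts in GENCODE release 44. Repeated sequence was counted as windows of 50 bases that occur more than once in GRCh38. Positions and promoters are from RefSeq (GRCh38.p14). Figures were drawn with matplotlib 3.10.9. The tests were tested on simulated counts.

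The members, lists, tests and alternatives were chosen with earlier results of these data known. Values in every library are given for HNRNPUL1, the members called in NO or by the interaction, members called in CN (up to 8 in each direction, by size), members called between fractions (up to 5 in each direction), and POLR1A, UBTF, POLR3A, POLR3G, POLR3GL, MAF1 and BRF1. The B box, TRL-AAG2-4 and the members outside this rule that are given with values were singled out after values were seen. Library totals were 37141666 to 104040073 counts, and precision is lowest for members with few counts, such as BRF2 and POLR1H. The count over the list of other Pol III pathway genes is not reported here.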

Additional observations from a re-analysis of the deposited data

How the results depend on the processing

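The number of members called in NO, 1 in the reported fit, was 0 with total counts, 0 with at least 10 counts in every library, 0 with a replicate block, 2 with no filter, 3 with DESeq2, 4 in a fit of all 12 libraries and 10 at an unadjusted p under 0.05, and from 0 to 23 when 1 library was left out, 23 being the number without HEK WT replicate 3. In NO, calls over all genes were 327 of 34836 in the reported fit, 10 with total counts and 224 with the replicate block. They were 143 of 25395 with at least 10 counts in every library and 1190 of 58785 with no filter. DESeq2 called 1082 of 58785, the fit of all 12 libraries 1745 of 37806, and fits without 1 library 123 to 9133. In CN the 24 calls became 8 with total counts and 5 in the fit of all 12 libraries, and 16 to 22 when a library was left out. Over all genes, 10324 of 27234 became 5430 of 27234 and 4215 of 37806, and 7286 to 10301 when a library was left out. The 22 calls between NO and CN became 4 with total counts, 14 with at least 10 counts in every library and 14 with a replicate block, and 14 to 32 when a library was left out. Calls over all genes went from 15494 of 29340 to 7011 with total counts and 9577 with the replicate block. They were 8759 of 21813 with at least 10 counts in every library, and 12502 to 21118 with a library left out. The interaction stayed at 0 member calls in each alternative run, with 0 to 104 calls over all genes. HNRNPUL1 in NO had a log2 fold change of -1.42 with total counts and was no longer called (adjusted p = 0.256).

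Same-numbered libraries of the 2 genotypes did not deviate together from their group means, with correlations across genes of -0.18, -0.20 and -0.41 in NO and -0.04, -0.14 and -0.33 in CN. Same-numbered NO and CN libraries gave -0.13, -0.40 and -0.54 in HEK WT and -0.04, -0.15 and -0.17 in HEK UL1 KO. The replicate numbers were therefore not taken as pairs. Whether same-numbered fractions come from 1 preparation of cells is not given in the labels. With the replicate block 23 members were called in CN and 0 in NO, against 8438 of 27234 and 224 of 34836 genes.

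Several small differences changed sign. In NO with total counts, the log2 fold change was 0.0115 for POLR1F, 0.0149 for POLR3B, 0.16 for GTF3A, 0.32 for POLR1B, 0.11 for POLR1A, 0.26 for POLR3G and 0.42 for BRF1. BRF1 in NO was also 0.0900 with at least 10 counts in every library and 0.0305 in the fit of all 12 libraries. POLR3GL in NO was -0.0454 with DESeq2, -0.0280 with no filter and -0.0159 with the replicate block. Leaving out a library in NO gave -0.18 to 0.15 for POLR3GL, -0.0278 to 0.38 for POLR3D, -0.0947 to 0.39 for MAF1, -0.11 to 0.36 for POLR1C, -0.13 to 0.58 for POLR1H and -0.15 to 0.17 for BRF1, the value furthest below 0 in each being that without HEK WT replicate 3. In CN, POLR1H was -0.0022 in the fit of all 12 libraries, GTF3A was 0.13 with total counts and 0.0117 with at least 10 counts in every library, POLR1B was 0.0673 with total counts, and UBTF was 0.12 with total counts and -0.21 to 0.0942 with a library left out, 0.0942 being without HEK WT replicate 3. None of these differences was called in the reported fit or under the alternative that changed its sign. The causes were not tested. Counts of 13 to 54 per library for BRF2 limit what small differences can be seen.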
